A study of Mus musculus with 6 samples.

Results

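The genes described are 9 markers of the alveolar type 1 cell (Ager, Hopx, Aqp5, Pdpn, Rtkn2, Clic5, Akap5, Emp2 and Cldn18), taken by gene symbol from an array table of 25428 probe sets. Each symbol matched 1 probe set, so all 9 members were measured. Total RNA was taken from 1 lung lobe of each of 6 male mice that had lived for 7 days at 10% oxygen. 3 mice were Nfat5fl/fl controls, whose Nfat5 alleles can be cut by a recombinase. 3 were Nfat5(SMC)-/- mice, whose smooth muscle cells (SMCs) lose Nfat5 through SM-MHC-CreERT2, a Cre recombinase that is driven by the smooth muscle myosin heavy chain promoter and switched on by tamoxifen. By the study's methods the offspring of this cross received tamoxifen to give Nfat5(SMC)-/- mice or its carrier oil to give Nfat5fl/fl mice as young adults, so the deletion and the drug cannot be told apart. The promoter does not direct the deletion to other cells such as the alveolar epithelium, whose own Nfat5 was not measured, and normoxic lungs were not analysed here. Mice carry the numbers 1, 2 and 4 in each group, as in the labels.

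The alveolar type 1 cell is the thin, widely spread epithelial cell that covers most of the gas exchange surface and shares a basement membrane with the capillary beneath it. It forms the tight barrier between air and tissue, moves water and ions, and is renewed after injury from the cuboidal alveolar type 2 cell, which makes surfactant. Its transcriptional programme depends on the lung factor NKX2-1 and on YAP and TAZ acting through TEAD factors. The question is how removal of NFAT5 from SMCs goes along with gene expression in the whole hypoxic lung, and for these genes it concerns a cell type that the Cre recombinase is not directed at.

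The 9 genes showed no change that passed the test. A difference is the mean of Nfat5(SMC)-/- lungs minus that of Nfat5fl/fl lungs on the log2 scale, and it was tested with limma (two-sided, threshold 0.05 on the Benjamini-Hochberg adjusted p, with 25428 probe sets in the adjustment). Limma called 0 of the 9 members, while it called 0.818% of all probe sets (0.558% lower and 0.26% higher). With an unadjusted p under 0.05 there were 3 members (Clic5, Akap5 and Rtkn2, all with lower means in Nfat5(SMC)-/- lungs) against 19.3% of all probe sets (11.1% lower and 8.19% higher), and by the methods' t-test 2 members (Clic5 and Akap5, and 0 after adjustment). The 208 calls over all probe sets became 980 without Nfat5(SMC)-/- mouse 1, among them Clic5 and Akap5, and 0 when any one of the other 5 lungs was left out. The differences ran from -0.65 for Akap5 to 0.24 for Aqp5, with a median of -0.13 beside a median of -0.0008 over all probe sets. The median was -0.04 among the 1058 probe sets at least as bright as Rtkn2, the dimmest member. Their median absolute difference was 0.19, against 0.18 for the members. Ager, Hopx, Pdpn, Emp2 and Cldn18 lay within 0.2 of no difference, as did 65.1% of all probe sets. In whole lobes fewer alveolar type 1 cells and less RNA per cell cannot be told apart.

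The labelled tissue carried these markers. The probe sets of the 9 genes lay between the 95.8th percentile (Rtkn2) and the 99.9th percentile (Ager) of signal on these arrays, although the brightness of a probe set also depends on its probes. Nfat5, the targeted gene, read 9.18, 8.62 and 9.21 in Nfat5fl/fl lungs 1, 2 and 4, against 8.23, 7.72 and 7.89 in lungs 1, 2 and 4 of Nfat5(SMC)-/- mice. The groups did not overlap, yet with -1.06 (SE 0.20; adjusted p = 0.0707 in limma) Nfat5 missed the threshold. It passed at -1.20 (adjusted p = 0.044) without Nfat5(SMC)-/- mouse 1. Mean correlations of an array with its own group lay between 0.970 and 0.991. Nfat5(SMC)-/- mouse 1 was farthest from the rest (0.970 with its own group and 0.960 with the controls). Nfat5(SMC)-/- mice 2 and 4 correlated no better with their own group, which includes mouse 1 (0.98 and 0.981), than with the controls (0.981 and 0.983).

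Clic5, Akap5 and Aqp5 were the 3 members whose groups did not overlap, and the 120 bases of reference sequence that precede their start sites are shown because the results turn on these genes. The sequences are from RefSeq on build GRCm38.p6, 5′ to 3′ on the plus strand, where all 3 genes lie, in lower case because none of the motifs searched falls in them.
Clic5, chr17:44188452-44188571: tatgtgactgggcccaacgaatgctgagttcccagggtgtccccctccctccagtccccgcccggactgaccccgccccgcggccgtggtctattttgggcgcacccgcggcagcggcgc
Akap5, chr12:76324771-76324890: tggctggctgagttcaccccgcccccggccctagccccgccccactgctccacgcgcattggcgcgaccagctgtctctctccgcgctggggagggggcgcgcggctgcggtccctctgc
Aqp5, chr15:99590908-99591027: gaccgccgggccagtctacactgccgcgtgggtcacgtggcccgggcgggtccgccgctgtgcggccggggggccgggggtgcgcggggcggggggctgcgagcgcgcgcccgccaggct
A promoter of 300 bases, 250 before and 50 after the start, was at hand for 8 of the 9 members (10 windows, with 2 each for Hopx and Cldn18). The Aqp5 window was the richest in G and C of the 10, at 79.7%, the 99th percentile of all promoters, whose median was 52.7%. The Akap5 window was at 70.7% and the Clic5 window at 54.3%.

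Both strands of the 10 windows were searched for CATTCC (the motif of TEAD factors), TGGAAA (the core bound by NFAT5) and CACTTG (a motif of NKX2-1), no one of which is part of another. CATTCC was in 0 windows (14.7% of all promoters hold it), TGGAAA in 2 (21.4% of all) and CACTTG in 2 (13.6% of all). A match is a run of letters and not a known binding site. The matches upstream of a start site are shown with 12 bases on each side, on the strand of the gene (minus for both genes), with the matched letters in capitals. In the window of the other Cldn18 start the match reads CACTTG on the opposite strand.
Emp2, chr16:10314154-10314183: ctcggaaagaagTGGAAAtctcagggtcct
Cldn18, chr9:99717402-99717431: ggtaccatgttgTGGAAAttatctcgctta
Cldn18, other start, chr9:99710144-99710173: agctcaaccagaCAAGTGcctcttggggct
The last match lay 35 bases after a start of Hopx, and 6 windows held none of the motifs, among them those of Clic5, Akap5 and Aqp5. The array gives 1 value for Cldn18 as a whole and does not separate its starts. Both genes with TGGAAA, Emp2 and Cldn18, had overlapping groups, as described next.

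Ager, Pdpn and Emp2, which encode proteins of the cell surface, had overlapping groups. Ager, the receptor for advanced glycation end products and a defining marker of this cell, read 12.32, 12.58 and 12.32 in Nfat5fl/fl lungs 1, 2 and 4, against 12.12, 12.51 and 12.35 in lungs 1, 2 and 4 of Nfat5(SMC)-/- mice. The groups overlapped, and the difference was -0.08 (SE 0.13, 95% interval -0.39 to 0.22; adjusted p = 0.778 in limma). It was 0.02 without Nfat5(SMC)-/- mouse 1 and 0.0026 without control mouse 2, so its sign rested on each of these lungs. Pdpn, which encodes podoplanin, a mucin-like glycoprotein that lymphatic endothelium and mesothelium also carry, was at 10.55, 10.69 and 10.45 in the controls and at 9.94, 10.64 and 10.58 in Nfat5(SMC)-/- lungs. Only Nfat5(SMC)-/- mouse 1 was below the controls. With it the difference was -0.18 (SE 0.20, 95% interval -0.66 to 0.30; adjusted p = 0.682 in limma) and without it 0.05 (adjusted p = 0.832), so the sign rested on this lung. Emp2, an epithelial membrane protein with several membrane-spanning segments, was at 12.21, 12.32 and 12.14 in the controls and at 11.98, 12.21 and 12.09 in Nfat5(SMC)-/- lungs. Nfat5(SMC)-/- mouse 2 lay above control mouse 4, and the difference of -0.13 (SE 0.09, 95% interval -0.34 to 0.08; adjusted p = 0.480 in limma) had the smallest SE of the 9. It was -0.07 without Nfat5(SMC)-/- mouse 1 and -0.08 without control mouse 2.

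The 2 proteins linked to water and ion movement had means that went opposite ways. Aqp5, the apical water channel of the type 1 cell, read 10.59, 10.72 and 10.66 in Nfat5fl/fl lungs 1, 2 and 4, against 10.79, 11.10 and 10.82 in lungs 1, 2 and 4 of Nfat5(SMC)-/- mice. All 3 Nfat5(SMC)-/- lungs were above all 3 controls. The ratio was 1.18-fold (95% interval 0.999 to 1.4), or 0.24 (SE 0.10) in log2, with an adjusted p of 0.262 in limma (unadjusted p = 0.0512). With Nfat5(SMC)-/- mouse 2 left out the difference was 0.15 (adjusted p = 0.407). Clic5, a chloride intracellular channel family protein that is tied to the actin cortex beneath the membrane, was at 11.98, 12.17 and 12.05 in the controls and at 11.34, 11.61 and 11.62 in Nfat5(SMC)-/- lungs. Here every Nfat5(SMC)-/- lung was below every control, and the gap of 0.36 between the nearest lungs was wider than the range within either group (0.19 and 0.28). The difference of -0.54 (SE 0.10, 95% interval -0.79 to -0.29), or 0.687-fold, had the smallest p of the 9 genes (unadjusted p = 0.00168, adjusted p = 0.0691 in limma). It did not pass the threshold with all 6 lungs, and it did without Nfat5(SMC)-/- mouse 1 (-0.45, adjusted p = 0.0455 in limma).

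Among the barrier and signalling proteins, Akap5 alone had groups that did not overlap. Cldn18, a claudin that seals the tight junctions of type 1 and type 2 cells, was at 11.33, 11.60 and 11.49 in the controls and at 11.18, 11.53 and 11.64 in Nfat5(SMC)-/- lungs. The difference was -0.02 (SE 0.14, 95% interval -0.36 to 0.32), with Nfat5(SMC)-/- lungs both at the bottom and at the top of the 6. It was 0.11 without Nfat5(SMC)-/- mouse 1 and 0.04 without control mouse 2. Akap5, an anchoring protein that holds protein kinase A, protein kinase C and calcineurin at the membrane, was at 10.69, 10.39 and 10.67 in the controls and at 10.21, 9.96 and 9.62 in Nfat5(SMC)-/- lungs. The nearest lungs, control mouse 2 and Nfat5(SMC)-/- mouse 1, were 0.18 apart, and the Nfat5(SMC)-/- lungs spread over 0.59. The difference of -0.65 (SE 0.17, 95% interval -1.05 to -0.24), or 0.638-fold, missed the threshold (adjusted p = 0.113 in limma). Without Nfat5(SMC)-/- mouse 1 it was -0.79 (adjusted p = 0.0494 in limma). Rtkn2, a rhotekin family protein that is also known from lymphocytes, was at 9.35, 9.80 and 9.70 in the controls and at 9.04, 9.15 and 9.41 in Nfat5(SMC)-/- lungs. Control mouse 1 lay among the Nfat5(SMC)-/- lungs, and at -0.41 (SE 0.15, 95% interval -0.78 to -0.05) the gene did not pass (adjusted p = 0.213 in limma).

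Hopx, a nuclear protein, is an atypical homeodomain cofactor that marks type 1 cells and is also known from cardiac muscle. It was at 9.23, 9.66 and 9.40 in the controls and at 9.39, 9.54 and 9.30 in Nfat5(SMC)-/- lungs. The controls spanned the range of all 6 lungs, and the difference was -0.01 (SE 0.13, 95% interval -0.32 to 0.30; adjusted p = 0.968 in limma). It was 0.10 without control mouse 2 and 0.04 without Nfat5(SMC)-/- mouse 4. On the linear scale this interval reaches from 0.799-fold to 1.23-fold. The genomic spans of 2 other genes overlap that of Hopx, one of them Hopxos, and that of 1 other gene overlaps Aqp5. Whether probes of these members are shared with them was not tested.

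**Figure D1:**
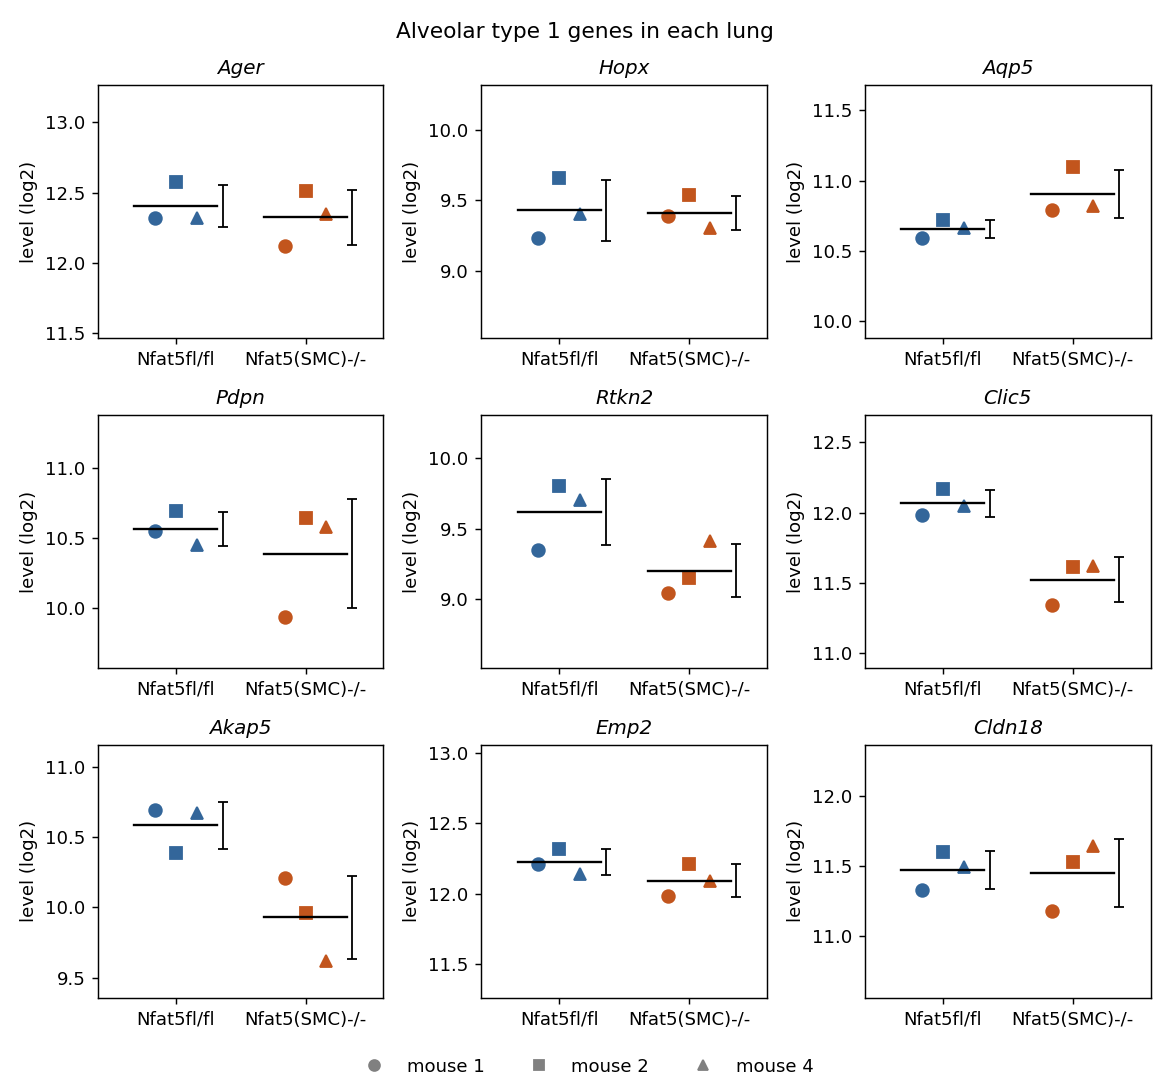
Level of each of the 9 alveolar type 1 genes (y axis, log2 level, 1.8 units high in every panel) in the 3 Nfat5fl/fl and the 3 Nfat5(SMC)-/- lungs. Points are lungs, with the mouse number given by the symbol, lines are group means and bars are SD (n = 3). Clic5 and Akap5 show all Nfat5(SMC)-/- lungs below the controls, Aqp5 shows them above, and the other 6 genes overlap.

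In all, 3 of the 9 members (33.3%) had no overlap between the groups, 2 lower and 1 higher, where 26.9% of all probe sets had none (15% lower and 11.8% higher). Among the 1058 probe sets at least as bright as the dimmest member this share was 39.2%, so the count for the members is near that of other genes. 8 of the 9 differences were negative, with Hopx at -0.01 and Cldn18 at -0.02, where 50.3% of all probe sets were negative. The count was 5 without Nfat5(SMC)-/- mouse 1 and also 5 without control mouse 2.

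**Figure D2:**
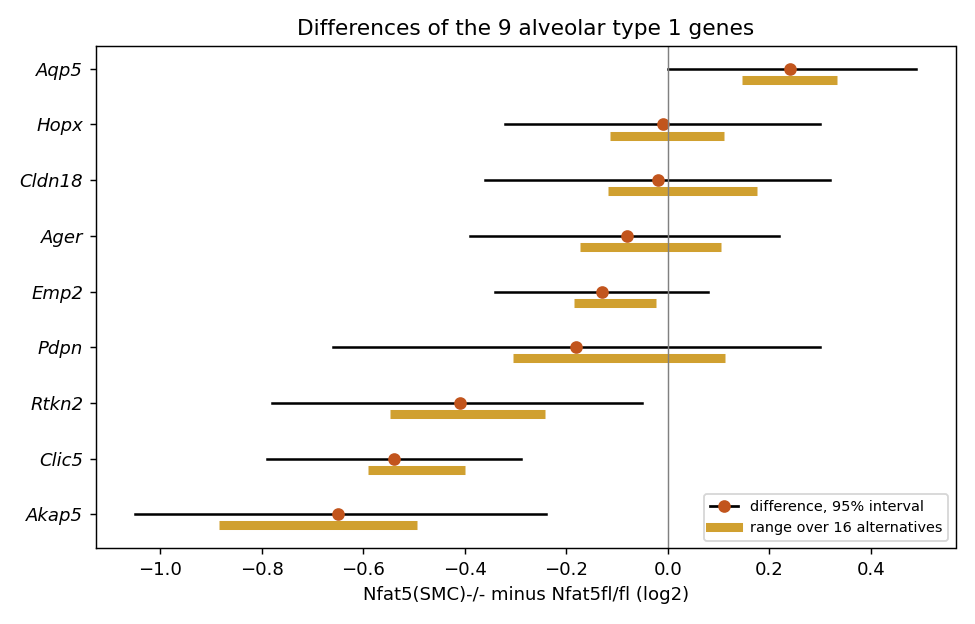
Difference of each member (x axis, Nfat5(SMC)-/- minus Nfat5fl/fl, log2), ordered by size. Points and black lines are the limma estimates with 95% intervals (n = 3 lungs per group), and yellow bars give the range of the estimate over 16 alternatives. Some of these alternatives leave the estimate as it is. Akap5, Clic5, Rtkn2 and Emp2 stay below 0 over all 16 and Aqp5 stays above, while the bars of Ager, Pdpn, Cldn18 and Hopx cross 0.

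By lung, the levels were ordered as follows. In the controls 8 were highest in mouse 2, and in Nfat5(SMC)-/- lungs 7 were lowest in mouse 1. In the lung of control mouse 2 the level of 6 members was the highest of the 6 lungs (Ager, Hopx, Pdpn, Rtkn2, Clic5 and Emp2). In that of Nfat5(SMC)-/- mouse 1 the level of 6 members was the lowest (Ager, Pdpn, Rtkn2, Clic5, Emp2 and Cldn18). The mean of the 9 genes, relative to all 6 lungs, was 0.02, 0.20 and 0.08 in Nfat5fl/fl lungs 1, 2 and 4, against -0.24, 0.01 and -0.08 in lungs 1, 2 and 4 of Nfat5(SMC)-/- mice. Some other lists had the same lungs at their ends, and most did not. The mean of the 33 other type 1 genes was 0.18 in control mouse 2 and -0.24 in Nfat5(SMC)-/- mouse 1. That of 12 airway genes was 0.23 and -0.24, and that of 13 basement membrane genes 0.19 and -0.14. Genes shared by lung epithelia and type 2 genes were highest in Nfat5(SMC)-/- mouse 2 (0.17 and 0.11). At the low end, genes shared by lung epithelia were lowest in Nfat5(SMC)-/- mouse 1 (-0.23), close to the members there. Lymphatic endothelium, cardiac muscle and alveolar macrophage genes were also lowest in that lung (-0.22, -0.44 and -0.11). Transcription regulators of the type 1 cell were highest in it (0.17). Smooth muscle and mesothelium genes were lowest in control mouse 2 (-0.22 and -0.20). The members' median difference was -0.13 with all lungs, -0.0040 without Nfat5(SMC)-/- mouse 1, and 0.11 when control mouse 2 was left out as well. These are the lungs where most members were lowest and highest, so leaving them out was bound to raise most of the differences. By array correlation control mouse 2 was like the other controls (0.987 with its own group and 0.976 with the other). Akap5 ran against this order. It was lowest of the controls in mouse 2 and highest of the Nfat5(SMC)-/- lungs in mouse 1, and its profile lay farthest from the mean of the other 8 (mean absolute distance 0.35 on the log2 scale, against 0.052 for Emp2 and 0.073 for Ager, the nearest).

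The probe sets whose profile over the 6 lungs was most like the mean of the 9 members were those of Trim16, Elapor2, Golga5, Exoc7 and Epor, at mean absolute distances of 0.025 to 0.033 on the log2 scale among 10405 candidates. Trim16 encodes a tripartite motif protein, Golga5 a golgin of the Golgi apparatus, Exoc7 a subunit of the exocyst and Epor the erythropoietin receptor. Their differences lay between -0.26 and -0.22, and limma called 0 of the 5 (adjusted p = 0.238 to 0.334). They were chosen for their likeness, which shares the lungs and the normalisation with the members.

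Gene span moved with the difference. Among probe sets above the median level, divided by span into 10 equal parts, the median difference went step by step from 0.27 in the part with the shortest genes to -0.25 in that with the longest. The members lie all along this scale. Aqp5 spans 3.80 kb and Ager 3.48 kb, in a part with a median of 0.15, and Clic5 spans 145 kb, in the part with a median of -0.25. After a correction of each array for span, Clic5 was at -0.42 (adjusted p = 0.0897 in limma), Rtkn2 (78.9 kb) at -0.31 (adjusted p = 0.302) and Aqp5 at 0.20 (adjusted p = 0.326). Akap5, a short gene of 9.9 kb in a part with a median of 0.11, was at -0.68 (adjusted p = 0.121). The part of gene span in these differences was not tested beyond this correction.

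**Figure D3:**
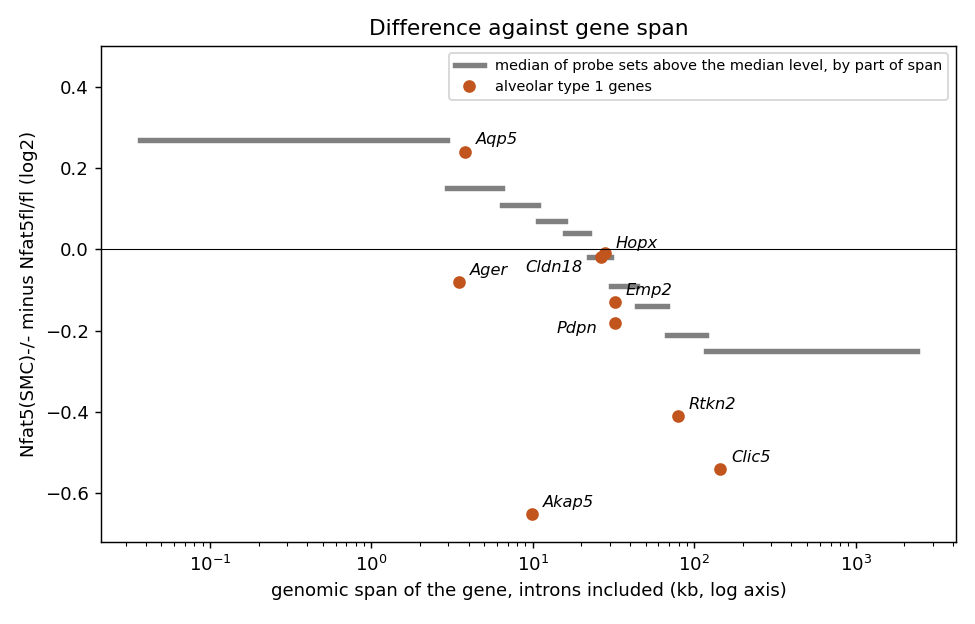
Difference (y axis, Nfat5(SMC)-/- minus Nfat5fl/fl, log2) against the genomic span of the gene with introns (x axis, kb, log axis). Grey bars give the median of all probe sets above the median level in each of the 10 parts, and points are the 9 members. The grey medians go from 0.27 to -0.25, and Akap5 at -0.65 and Clic5 at -0.54 lie lowest.

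Other genes of the alveolar type 1 cell were examined as a list of 33, chosen with earlier results of these data known. Of the 33, 1 was called higher and 0 lower, 23 had negative differences, and the median was -0.10. 13 had no overlap between the groups (39.4%), 11 of them lower. Of all probe sets 26.9% had none (15% lower and 11.8% higher). Among the 1058 probe sets at least as bright as Rtkn2, the dimmest member, the share was 39.2%. Some of the 33 genes were dimmer than Rtkn2. S100a6, a calcium-binding protein that many cell types express, rose by 0.48 (SE 0.07; adjusted p = 0.0474 in limma), with levels of 10.08, 10.07 and 9.96 in the controls and 10.54, 10.47 and 10.55 in Nfat5(SMC)-/- lungs. That call held in 3 of 16 alternatives, and was lost without any lung but Nfat5(SMC)-/- mouse 1 (adjusted p up to 0.228). Igfbp2, an insulin-like growth factor binding protein of mature type 1 cells, was at 9.86, 9.88 and 9.67 in the controls and at 10.46, 10.46 and 10.15 in Nfat5(SMC)-/- lungs (difference 0.55, adjusted p = 0.0762). Limch1, an actomyosin regulator that fibroblasts also express, was at -0.34 (adjusted p = 0.0653) and the secreted guidance factor Sema3a at -0.61 (adjusted p = 0.0836), both without overlap between the groups.

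Regulators of the type 1 programme and their targets gave no call. Limma called 0 of 13 transcription regulators and 0 of 9 YAP and TAZ targets. In each list 2 genes had an unadjusted p under 0.05, as had 19.3% of all probe sets. Nkx2-1 was at 0.11 (adjusted p = 0.575), Yap1 at -0.01 (0.982) and Wwtr1, which encodes TAZ, at 0.17 (0.661). Tead1, a partner of YAP and TAZ, was at -0.37 (0.101) and Cebpa, a factor of type 2 cells and also of fat cells, at 1.09 (0.0820). Cebpa was at 7.97, 8.46 and 7.88 in the controls and at 9.62, 8.96 and 9.02 in Nfat5(SMC)-/- lungs, with no overlap. Of the targets, the matrix protein genes Ccn2 and Ccn1 were at 0.30 (0.0904) and -0.26 (0.381). Crim1, a transmembrane protein that binds bone morphogenetic proteins, was at -0.56 (0.115), with no overlap between the groups.

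Genes of alveolar fluid clearance and of the junctions were mixed. Of 15 transport genes 1 was called higher and 0 lower. Slc9a3r1, a scaffold for transporters at the apical membrane, read 7.85, 8.01 and 7.92 in the controls and 8.51, 8.5 and 8.37 in Nfat5(SMC)-/- lungs. It rose by 0.54 (adjusted p = 0.0490 in limma), a call that held in the same 3 alternatives and was likewise lost (adjusted p up to 0.234). The chloride channel gene Cftr was at -0.47 (adjusted p = 0.0744) and the chloride cotransporter gene Slc12a2 at -0.42 (0.0958), both without overlap. Limma called 0 of 12 tight junction genes beside Cldn18 (4 at an unadjusted p under 0.05, against 19.3% of all probe sets). Cldn3 was at 0.81 (adjusted p = 0.0802), and Tjp1 and Ocln at -0.42 and -0.30 (0.144 and 0.170). Of 13 genes of the alveolar basement membrane 0 were called, 1 passed at an unadjusted p under 0.05, the integrin ligand Npnt (-0.33, adjusted p = 0.0958), and the median was -0.03.

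For other epithelial cells of the lobe, the median was 0.03 over 19 type 2 genes and 0.06 over 14 genes shared by lung epithelia, and limma called 0 in both (4 and 3 at an unadjusted p under 0.05). Sftpc, the surfactant protein of type 2 cells, was at -0.11 (adjusted p = 0.621). Fasn, the fatty acid synthase that fat cells also use, was at 1.11 (0.0702). Each array was also shifted by its own mean over the shared epithelial genes. The members' median was then -0.12, Clic5 was at -0.53 (adjusted p = 0.129 in limma) and Akap5 at -0.64 (0.276). That shift moves the difference of every gene by the same amount, set by the list's own mean difference of -0.01. The estimates were therefore bound to stay close, and the part of epithelial content was not tested by them. In the list of the state between type 2 and type 1 cells, 0 of 14 genes were called, 6 passed at an unadjusted p under 0.05, and the median was 0.22. Of all probe sets 19.3% passed at that unadjusted p in limma. Plaur, the urokinase receptor, was at 0.60 (adjusted p = 0.0616), Lgals3, a galectin that macrophages also express, at 0.26 (0.113), and the integrin gene Itgb6 at -0.57 (0.129). Of 12 airway genes, Cfap44 and Dnah12, which encode parts of the ciliary axoneme, were called lower (-1.24 and -1.34, adjusted p = 0.0416 and 0.0462 in limma), and the median was -0.13. Each call held in 5 of 16 alternatives and was lost without any lung but Nfat5(SMC)-/- mouse 1 (adjusted p up to 0.228). Foxj1, the regulator of motile cilia, was at 0.66 (adjusted p = 0.166) and the ciliary gene Hydin at -0.56 (0.185), both without overlap, and Ccdc153, a gene of ciliated cells, was at 0.36 (0.451).

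Markers of other cells of the lobe are given beside these results. All 12 fat cell genes had positive differences with a median of 2.24, and 3 were called (Plin1, Cidec and Cfd). The list mean lay between -1.49 and -0.79 in the controls and between 0.50 and 1.44 in Nfat5(SMC)-/- lungs, and the 5 brown fat genes had a median of 1.63 (0 called, 4 at an unadjusted p under 0.05). The lists of alveolar capillary cells (8 genes), general endothelium (12), lymphatic endothelium (5), mesothelium (7), smooth muscle (8), alveolar fibroblasts (10), alveolar macrophages (8), cardiac muscle (8) and red cells (3) had medians of 0.01, 0.03, -0.06, 0.18, -0.02, -0.17, 0.06, -0.10 and 0.52, and limma called 0 genes in each. In the same order 2, 5, 0, 3, 1, 4, 1, 1 and 0 genes passed at an unadjusted p under 0.05, where 19.3% of all probe sets did. Group ranges of the list mean overlapped for all of them but the fibroblast list, which lay at 0.03 to 0.11 in the controls and at -0.14 to -0.03 in Nfat5(SMC)-/- lungs. The part of fat tissue in the lobe in the members' differences was not tested.

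**Figure D4:**
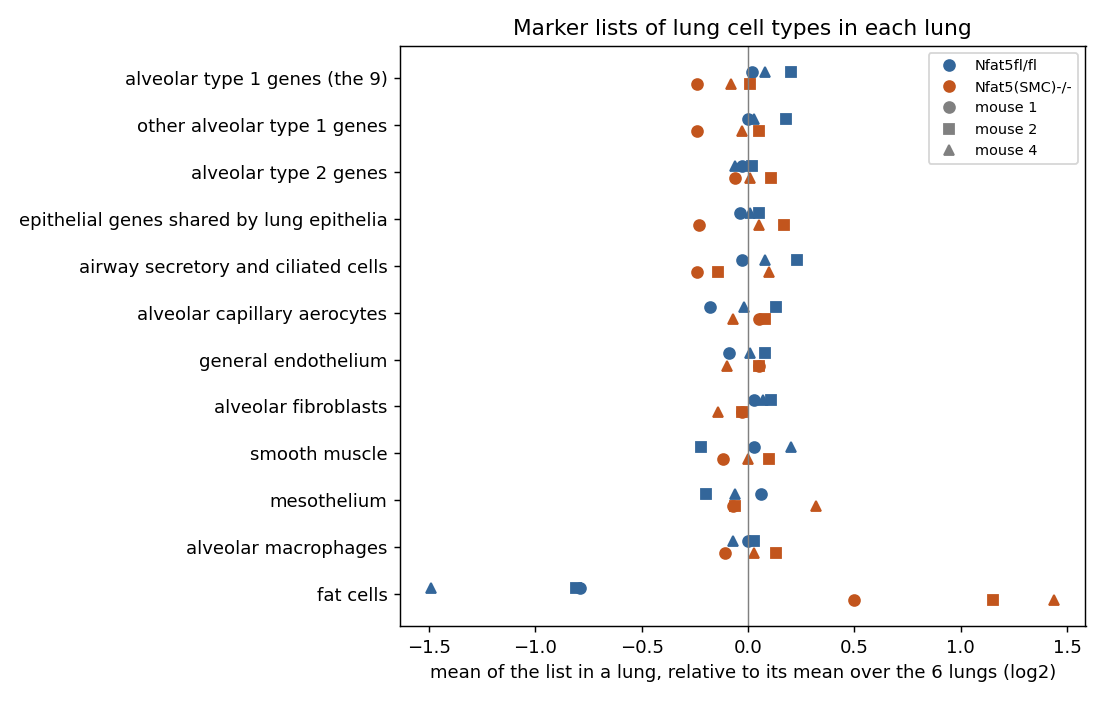
Mean of 12 marker lists in each lung (x axis, log2, relative to the mean of the list over the 6 lungs). Colours give the genotype and symbols the mouse number. The 9 alveolar type 1 genes lie between -0.24 and 0.20, with Nfat5(SMC)-/- mouse 1 lowest and control mouse 2 highest, while the fat cell list separates the genotypes by more than 1 log2 unit.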

How the data were processed

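Each of the 6 lobes was measured on its own GeneChip Mouse Gene 2.0 ST array. The authors deposited log2 levels. Their processing notes name RMA (version: not given in the sources used here). Levels were quantile normalised, with 1 probe set per Entrez gene from a custom chip definition. A shift shared by all genes therefore cannot be seen, and the number of arrays limits the precision. No genome build is named for the files. Symbols and gene spans came from the platform table and a RefSeq gene table of GRCm38.p6 (25269 of 25428 probe sets had 1 symbol and 25237 a span).

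The genotypes, grouped by the sample titles, were compared by the functions lmFit and eBayes of limma 3.58.1 (R 4.3.3), without covariate and without a filter on level. Values are log2 levels per lung, or means with SE or 95% intervals from the fit. The lungs are separate mice. The code was tested on simulated data. The members and gene lists were chosen with earlier results of these data known. All 9 members are named. For other lists the genes with the smallest p (up to 4) and the brightest member of a list of another cell type could be named, as well as the 5 probe sets nearest in profile to the members. Those had to lie above the median level and to have an SD over the 6 lungs of at least 0.147, that of the member mean. Nkx2-1, Yap1, Wwtr1 and Ccdc153 fall outside this rule and were chosen after their values were seen. Alternatives were the methods' t-test, 2 other priors, array weights, cyclic loess, a filter at the median level, the mouse number as a block, a correction for gene span (lowess, fraction 0.3), a shift by epithelial genes, each lung left out and 2 lungs left out together.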

Additional observations from a re-analysis of the deposited data

How the results depend on the processing

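Over 16 alternatives Emp2, Rtkn2 and Aqp5 kept their sign and were never called, and Clic5 and Akap5 kept their sign and were called lower in 3. The t-test, the 2 other priors, the level filter and the mouse block leave the estimate as it is, so they could not turn a sign. The count of called members was 2 (Clic5 and Akap5) with array weights, which give lungs that stand apart less say. It was also 2 without Nfat5(SMC)-/- mouse 1 and control mouse 2 together. With 1 lung left out it ranged from 0 to 2, the 2 being without Nfat5(SMC)-/- mouse 1. In the same settings calls rose over all probe sets, not only among the members. The 208 calls became 980 without Nfat5(SMC)-/- mouse 1, 3263 with array weights and 1452 without the 2 lungs together. The members' median difference was 0.0369 with array weights and 0.11 without those 2 lungs, and ranged from -0.18 to -0.0040 with 1 lung left out. The 2 lungs left out together were those where most members were lowest and highest, so most differences were bound to rise without them. Genes near no difference turned sign. With array weights Ager was at 0.061, Cldn18 at 0.0742, Hopx at 0.0369 and Pdpn at 0.0715, and without the 2 lungs Ager was at 0.11, Cldn18 at 0.18, Hopx at 0.11 and Pdpn at 0.11. After cyclic loess Cldn18 was at 0.03 and Hopx at 0.0087, and after the span correction Hopx was at 0.0068. With 1 lung left out they ranged from -0.17 to 0.0208 (Ager), -0.12 to 0.11 (Cldn18), -0.11 to 0.10 (Hopx) and -0.30 to 0.0479 (Pdpn), and 0 of these passed. Nfat5 was at -1.29 with array weights and -1.39 without the 2 lungs, called in both, and between -1.25 and -0.94 with 1 lung left out.

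Over all probe sets the count of 208 (66 higher, 142 lower) was 0 by the methods' t-test, 2 with a mean-dependent prior (2 higher), 3263 with array weights (1379 higher), 1 after cyclic loess (higher), 98 above the median level (38 higher), 60 after the span correction (32 higher), 13 with the epithelial shift (11 higher) and 1452 without the 2 lungs (548 higher), and ranged from 0 to 980 with 1 lung left out. It was 980 without Nfat5(SMC)-/- mouse 1 and 0 without any other lung. The cause was not tested. With the mouse number as a replicate block it was 0, and 0 members were called. The labels give the numbers no meaning beyond naming the mice. Deviations of same-numbered lungs correlated at 0.133, 0.411 and 0.0775, and those of other pairs at -0.329 to 0.145. Not every lung correlated best with its own number. Whether lungs of equal number belong together was not tested beyond this.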
